A study of Mus musculus with 54 samples.

Results

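The genes described here are the 6 enzymes and transporters of the polyol pathway and of fructose breakdown named Akr1b3, Sord, Slc2a5, Khk, Dak and Glyctk. They were taken by gene symbol from a table of 55487 genes; all 6 were present, and all 6 were among the 12742 genes that passed a filter on low values and were tested. Dak is the older symbol of Tkfc, the triokinase gene. The polyol pathway turns glucose into sorbitol with aldose reductase and sorbitol into fructose with sorbitol dehydrogenase. Fructose, made this way or taken up from outside the cell, is phosphorylated by ketohexokinase and then split, and the glyceraldehyde so released is phosphorylated by triokinase. The proximal tubule, the nephron segment that reabsorbs filtered glucose, is one of the main sites of fructose breakdown outside the liver.

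The study measured RNA from SGLT2-positive early proximal tubules cut out of mouse kidney by laser capture, with 70 to 80 tubules pooled per sample. SGLT2 and SGLT1 are the glucose transporters of the tubule's brush border, encoded by Slc5a2 and Slc5a1. All animals were male DBA mice of 14 weeks. Diabetic mice carried the dominant Akita mutation (Ins2 Akita/+), which damages insulin-making cells, and their non-diabetic littermates were Ins2+/+. Either kind was Sglt1-/- (knockout) or Sglt1+/+ (wild type), and treatment lasted 2 weeks. Dapagliflozin, an SGLT2 inhibitor, was given at 10 mg per kg of diet, and semaglutide, an agonist of the GLP-1 receptor, at 3 nmol per kg body weight per day by subcutaneous injection. Each of the 9 groups had 6 labelled samples, of which the table held 48 in all. In Akita mice these were 6 knockout on dapagliflozin, 6 knockout on vehicle, 5 wild type on semaglutide, 5 wild type on dapagliflozin and 6 wild type on vehicle. In non-diabetic mice they were 6 knockout on dapagliflozin, 5 knockout on vehicle, 4 wild type on dapagliflozin and 5 wild type on vehicle. No label links a sample to its animal, so p-values measure only the spread between these samples. The values are TPM, a transcript abundance unit that corrects for transcript length and sets every library to the same sum; the read depth is unknown.

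The targeted gene Slc5a1 was at most 0.123 TPM in any of 23 knockout libraries, against 0.814 to 4.29 TPM in 25 wild-type libraries, which matches the genotype labels. Slc5a2 was present at 82.5 to 275 TPM in all 48 libraries, and the summed level of 8 early proximal tubule markers was 839 to 2113 TPM. The 8 late proximal tubule markers summed to 239 to 1190 TPM, a range that overlapped the early sum. Markers of cells outside the proximal tubule were present at lower levels. Those of the distal convoluted tubule summed to 12 to 263 TPM, led by Slc12a3 at up to 229 TPM, the immune markers to 4.61 to 184 TPM and the thick ascending limb markers to 6.13 to 61.3 TPM. The endothelial markers summed to 11 to 57.5 TPM, the collecting duct markers to 8.68 to 50.7 TPM, the stromal markers to 1.86 to 23.9 TPM, the podocyte markers to 1.62 to 23.7 TPM and the red blood cell markers to 0 to 20 TPM. Of defining markers, Slc12a3 and the thick ascending limb genes Umod and Slc12a1 were above 0 in all 48 libraries, while the haemoglobin gene Hba-a2 was listed at 0 in 13 of 48. Libraries held between 8465 and 11419 detected genes, and the 4 with the fewest were all from Akita mice on vehicle, 2 of each Sglt1 genotype. In tissue samples such as these, fewer cells of a type and less RNA per cell cannot be told apart.

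All 6 genes were expressed in every library, and their levels spanned more than an order of magnitude. Sord, sorbitol dehydrogenase, was the most abundant, with a mean of 78.5 TPM over the 48 libraries (range 34.9 to 154). Khk, ketohexokinase, followed at 71.1 TPM (37.9 to 110), and Dak, triokinase, at 44.6 TPM (28.3 to 77.6). Each of these 3 was above at least 97% of the tested genes. Glyctk, glycerate kinase, which phosphorylates the glycerate that can form from glyceraldehyde, averaged 25 TPM (10.1 to 37.7). Slc2a5, the fructose transporter GLUT5, averaged 16.1 TPM (7.24 to 47.6). Akr1b3, aldose reductase, the first enzyme of the polyol pathway, was the least abundant at 5.98 TPM (1.02 to 14.6), above 68.6% of the tested genes. The early tubule RNA thus held far more transcript for the enzyme that makes fructose from sorbitol than for the enzyme that makes sorbitol from glucose.

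Akr1b3 lies on chromosome 6 at 34302434 to 34317478, minus strand, Sord on chromosome 2 at 122234749 to 122265340, plus strand, and Slc2a5 on chromosome 4 at 150119283 to 150144169, plus strand. Glyctk lies on chromosome 9 at 106152857 to 106158138, minus strand (all GRCm38).

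The group means of each gene lay within 2.06 times of each other. The highest group mean was 2.06 times the lowest for Slc2a5, 1.78 times for Akr1b3, 1.64 times for Dak, 1.57 times for Khk, 1.47 times for Sord and 1.24 times for Glyctk. When the 9 group means of a gene were put in order, none of its 8 neighbouring pairs differed by more than the larger of their SDs. This held for all 6 genes. Ordering makes the steps between neighbours small, so it does not show that the highest and lowest groups are alike. Khk, for example, was highest at 87 ± 17.4 TPM in Akita wild-type mice on dapagliflozin (SD, n = 5) and lowest at 55.5 ± 12.4 TPM in Akita knockout mice on vehicle (SD, n = 6). That gap was wider than either SD.

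**Figure D1:**
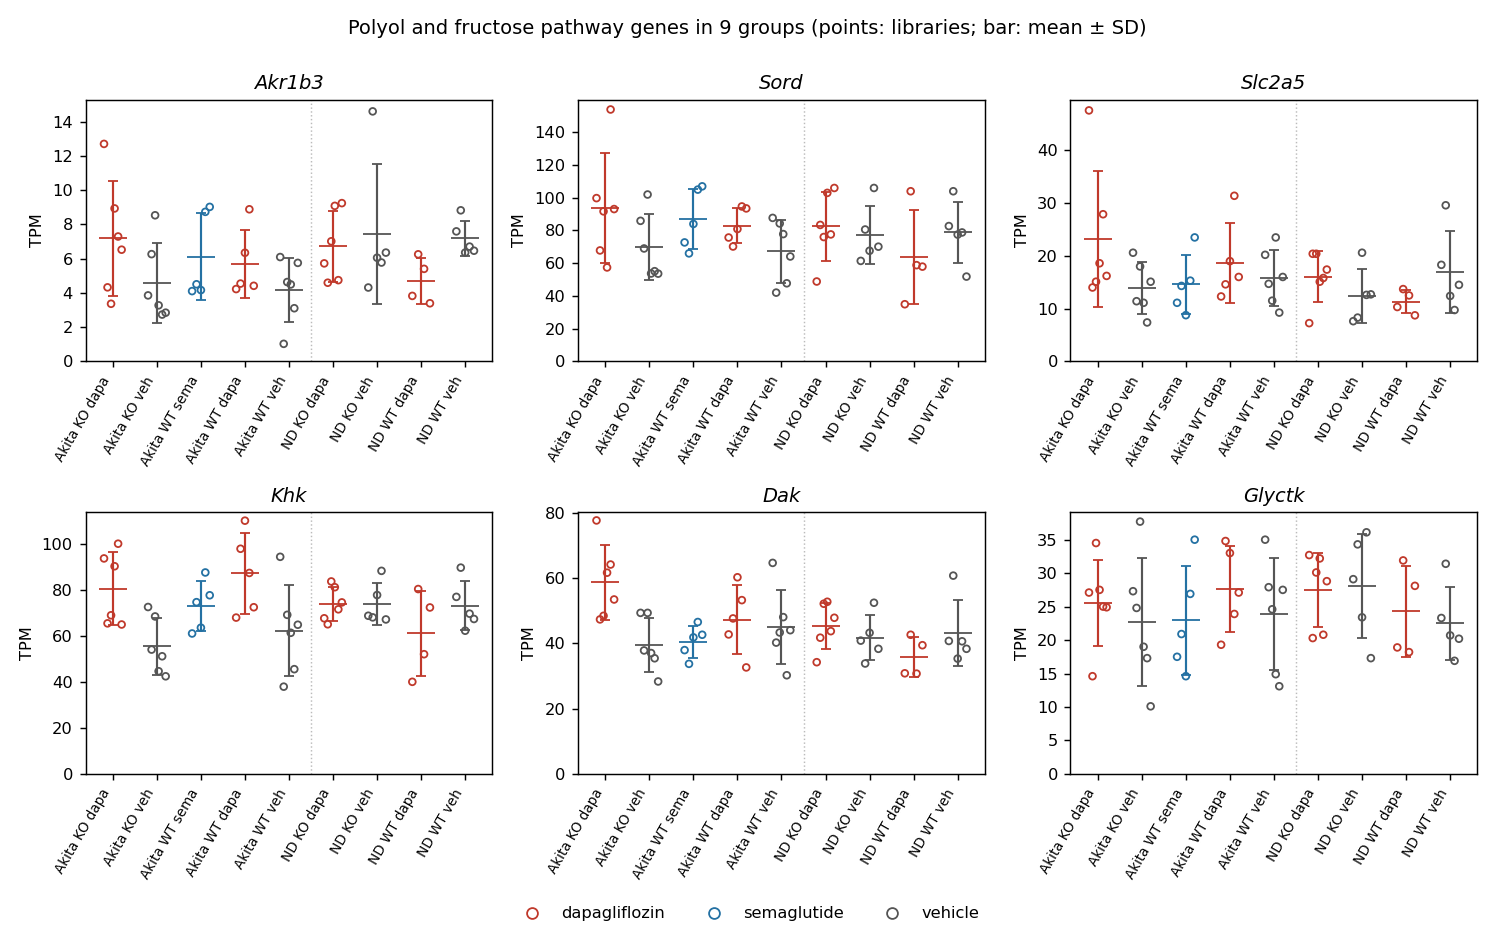
TPM of the 6 genes (vertical axes, linear from 0) in the 9 groups; circles are libraries, bars are group means ± SD, KO and WT are the Sglt1 genotypes and ND is non-diabetic. The Khk panel shows the Akita dapagliflozin groups (means 80.5 and 87 TPM) above the Akita vehicle groups (55.5 and 62.1 TPM), with overlapping points.

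The 1 change that passed the threshold was in the fructose kinase Khk, under dapagliflozin in Akita mice. In Akita knockout mice on dapagliflozin, Khk had a lowest value of 64.9, a median of 79.5 and a highest value of 100 TPM, against 42.4, 52.5 and 72.5 TPM in Akita knockout mice on vehicle. In Akita wild-type mice on dapagliflozin the 5 libraries had 67.9, 97.8, 110, 87.3 and 72.4 TPM, against a lowest value of 37.9, a median of 63.1 and a highest value of 94.3 TPM on vehicle. The ranges overlapped in both genotypes, but in TPM 11 of 11 treated libraries lay above the vehicle median of their own genotype. Averaged over both genotypes, Khk rose by 0.53 ± 0.13 on the log2 scale (SE; 95% interval 0.26 to 0.79), on log2(TPM + 1), with an adjusted p of 0.0393 by limma. It was the 1 gene of the 6 called in this comparison, where 0.816% of all tested genes were called. By genotype the difference was 0.53 ± 0.18 in knockout and 0.52 ± 0.19 in wild-type mice (SE), and neither passed the threshold alone (limma adjusted p = 0.643 and 0.354). The comparison averaged over genotypes was chosen with earlier results of these data known.

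The other 5 genes had positive differences in the same comparison that did not pass the threshold. At an unadjusted p under 0.05, 5 of the 6 genes were higher and none was lower, against 16.8% of all tested genes higher. The median difference of the 6 genes was 0.40, beside 0.17 over all tested genes, of which 80.8% had a positive difference. After median-of-ratios scaling, which equalizes the typical gene across libraries, it was 0.14 beside -0.01. On that scale 6 of the 6 genes were positive in Akita knockout mice, with a median of 0.31. In Akita wild-type mice 3 of the 6 were, with a median of 0.02. In TPM, averaged over genotypes, Akr1b3 differed by 0.49 ± 0.20 (SE; limma adjusted p = 0.207), with 7 of 11 treated libraries above the vehicle median. Sord differed by 0.37 ± 0.17 (adjusted p = 0.242, 9 of 11 libraries), and Slc2a5 by 0.42 ± 0.21 (adjusted p = 0.281, 9 of 11 libraries). Dak differed by 0.32 ± 0.13 (adjusted p = 0.183, 9 of 11 libraries). Glyctk, which sits on the side branch through glycerate, differed least, by 0.24 ± 0.18 (95% interval -0.12 to 0.60; adjusted p = 0.491).

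The call of Khk depended on how libraries were put on a common scale and on single libraries. After median-of-ratios scaling Khk differed by 0.27 ± 0.10 (SE; adjusted p = 0.26), Akr1b3 by 0.29, Slc2a5 by 0.175, Sord by 0.11, Dak by 0.06 and Glyctk by -0.01. On that scale replicate 3 of knockout dapagliflozin (51.6) and replicate 6 of wild-type dapagliflozin (58.2) lay below the Khk vehicle median of their genotype. Without the 4 libraries with the fewest genes Khk differed by 0.34 ± 0.13 (adjusted p = 0.765). The call was also lost without any 1 of 13 libraries, with differences between 0.46 and 0.55 and adjusted p between 0.05 and 0.103. These were replicates 1, 5 and 6 of knockout dapagliflozin, 4, 5 and 6 of knockout vehicle, 2, 4 and 5 of wild-type dapagliflozin, and 2, 4, 5 and 6 of wild-type vehicle, numbered in accession order. The count of 104 genes called over all tested genes was no steadier: it moved to between 9 and 378 when 1 of the 23 compared libraries was left out, by over 1.5 times for each library but replicate 3 of knockout dapagliflozin and replicate 2 of knockout vehicle.

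Markers of a later tubule segment moved with this comparison. All 8 late proximal tubule markers had positive differences, with a median of 0.61, and 1 of them was called: Acy3, an aminoacylase, at 0.79 ± 0.17 (SE; limma adjusted p = 0.0251). Their summed level was 523 to 988 TPM in Akita knockout mice on dapagliflozin, against 239 to 820 TPM on vehicle. In Akita wild-type mice it was 537 to 1016 TPM on dapagliflozin, against 240 to 719 TPM on vehicle. These sums mainly follow Acy3 and Atp11a, the most abundant of the 8, with means of 415 and 184 TPM over the 48 libraries. After median-of-ratios scaling all 8 were still positive, with a median of 0.44 and 1 called. Slc7a13, a defining marker of the late segment, was above 0 in every library, at 10.7 to 55.3 TPM. The share of TPM in nuclear protein-coding genes also differed, with medians of 10.4% in knockout and 10.7% in wild-type mice on dapagliflozin, against 8.7% and 9.14% on vehicle. The part of either in the Khk result was not tested.

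**Figure D2:**
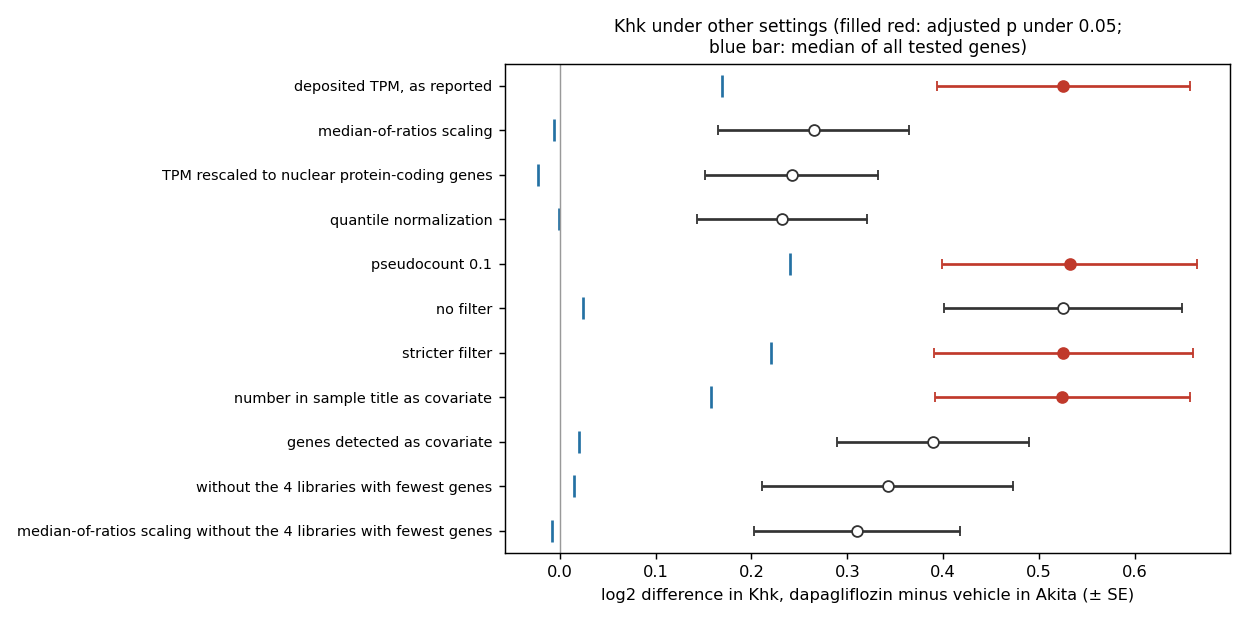
Difference in Khk between Akita mice on dapagliflozin and on vehicle (horizontal axis, log2; circles with ± SE bars) under the settings named on the vertical axis, beside the median of all tested genes (blue bars). Khk lies to the right of the gene median in all of them, between 0.23 and 0.53, and the red filled circles mark the settings where its adjusted p was under 0.05.

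For triokinase the larger difference under dapagliflozin was in Akita knockout mice; whether the drug's effect differed between Sglt1 genotypes was not tested. Dak had a lowest value of 47.3, a median of 57.5 and a highest value of 77.6 TPM in Akita knockout mice on dapagliflozin, against 28.3, 37.4 and 49.3 TPM on vehicle. In TPM all 6 treated libraries lay above the vehicle median, and the ranges met only between 47.3 and 49.3 TPM. The difference was 0.56 ± 0.17 (SE; 95% interval 0.21 to 0.91; limma adjusted p = 0.643, where 0% of all tested genes were called and 7.59% had an unadjusted p under 0.05). It was 0.33 after median-of-ratios scaling and 0.27 after quantile normalization. On the median-of-ratios scale the values were 36.2 to 74.7 on dapagliflozin against 35.4 to 55.8 on vehicle. Replicate 3 on dapagliflozin then lay below the vehicle median. In Akita wild-type mice Dak had 42.7, 47.6, 60.2, 53.2 and 32.6 TPM on dapagliflozin, against a lowest value of 30.2, a median of 43.6 and a highest value of 64.6 TPM on vehicle. There the groups overlapped over most of their range and the difference was 0.07 ± 0.18 (SE; adjusted p = 0.903). Under the 3 other scalings the wild-type group mean of Dak was lower on dapagliflozin, at 43.4 to 44.7, against 49.6 to 51.4 on vehicle. Reads of Dak and of Cyb561a3 and Ddb1, which overlap it on the opposite strand, come from a stranded kit, as do those of Akr1b3 and Gm14546 and of Glyctk, D030055H07Rik and Mir135a-1, but the strand setting of the quantification is not given in the sources used here.

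The fructose transporter gave a similar picture in the knockout mice. Slc2a5 had a lowest value of 14, a median of 17.4 and a highest value of 47.6 TPM in Akita knockout mice on dapagliflozin, against 7.37, 13.3 and 20.6 TPM on vehicle. The difference was 0.63 ± 0.29 (SE; limma adjusted p = 0.654), and 1 library at 47.6 TPM stood above the other 5, which were at or below 27.9 TPM. Without that library, replicate 1, the difference was 0.40, and with all libraries it was 0.41 after median-of-ratios scaling. In Akita wild-type mice it had 12.3, 14.6, 19, 31.4 and 16 TPM on dapagliflozin, against 9.24, 15.3 and 23.5 TPM (lowest, median, highest) on vehicle. The groups overlapped, with a difference of 0.21 ± 0.30 (SE; adjusted p = 0.822).

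Khk and Dak, the kinases of fructose and of glyceraldehyde, were also the most alike of the 6 genes across libraries, with a Pearson correlation of 0.63 over the 48 libraries on median-of-ratios scaled log2 values. Stretches of their windows before the RefSeq start are shown for that reason, from RefSeq on GRCm38.p6, in which 5 of the 6 genes were found (Khk, Dak, Sord, Slc2a5 and Glyctk). Khk lies on chromosome 5 at 30921431 to 30931248, plus strand, 2.17 Mb from the knocked-out Slc5a1, and Dak on chromosome 19 at 10587791 to 10605654, minus strand (GRCm38). Capitals mark motif matches, searched on both strands in the 250 bases before each RefSeq start: CACGTG, the E-box, then CCAAT, and TATAAA, the TATA box. The first line is the part of the Khk window before its annotated transcript (chr5:30921309-30921430), which holds none. The second is a 30-base piece around the E-box of Khk, 71 bases before the RefSeq start and inside an annotated 5' UTR (chr5:30921476-30921505). The third is a stretch of the Dak window (chr19:10604274-10604508, minus strand), with a CCAAT box 66 bases before the RefSeq start. It lies inside the annotated gene: 6 of the 7 GENCODE transcripts of Dak start further upstream and span it with an intron, and 1 starts at the RefSeq start.
Khk upstream: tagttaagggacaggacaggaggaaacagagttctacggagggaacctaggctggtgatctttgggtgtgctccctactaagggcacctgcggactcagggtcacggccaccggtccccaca
Khk E-box: agcgttccccgtCACGTGacaccgttaatc
Dak window: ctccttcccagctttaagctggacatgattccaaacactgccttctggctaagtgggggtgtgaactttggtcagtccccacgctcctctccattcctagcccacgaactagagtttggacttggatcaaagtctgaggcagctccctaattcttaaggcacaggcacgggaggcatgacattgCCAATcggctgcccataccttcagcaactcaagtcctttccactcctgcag
Of 32851 RefSeq windows of the same length, 6.02% held CACGTG, 33.8% CCAAT and 12.4% TATAAA. Khk was thus in the smaller set that holds an E-box, while Dak and Glyctk shared the common CCAAT box and the windows of Sord and Slc2a5 held none of the 3 motifs.

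Without diabetes, no gene of the 6 passed the threshold under dapagliflozin. Averaged over both Sglt1 genotypes, limma called 0 of the 6 genes and 0% of all tested genes; 0 of the 6 had an unadjusted p under 0.05, against 3.69% of all genes. Khk had a lowest value of 65, a median of 73 and a highest value of 83.6 TPM in non-diabetic knockout mice on dapagliflozin, against 68.7, 68, 77.7, 88.2 and 67.1 TPM on vehicle. In non-diabetic wild-type mice it had 40, 80.3, 52 and 72.3 TPM on dapagliflozin, against 76.9, 89.6, 62.2, 69.6 and 67.3 TPM on vehicle. The groups overlapped in both genotypes, and the averaged difference was -0.15 ± 0.14 (SE; 95% interval -0.43 to 0.14; adjusted p = 0.979). Averaged over genotypes, the other 5 genes lay between -0.30 and 0.04. For Slc2a5 the average of -0.05 came from opposite signs, with -0.46 ± 0.33 in wild-type and 0.37 ± 0.30 in knockout mice (SE). The lowest average was that of Akr1b3, with -0.54 in wild-type mice (limma adjusted p = 0.981) and -0.06 in knockout mice. The wild-type values of Akr1b3 did not overlap, at 3.39 to 6.25 TPM on dapagliflozin against 6.35 to 8.82 TPM on vehicle. They did overlap after median-of-ratios scaling, and the share of all tested genes without overlap was not counted.

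The test of whether the drug's effect differed between Akita and non-diabetic mice called 0 of the 6 genes and 0% of all tested genes by limma, although 4 of the 6 had an unadjusted p under 0.05, against 14.7% of all genes. The effect on Khk was higher in Akita than in non-diabetic mice by 0.67 ± 0.19 on the log2 scale (SE; 95% interval 0.28 to 1.06; limma adjusted p = 0.268). For Akr1b3 it was higher by 0.79 ± 0.30 (SE; adjusted p = 0.287), for Sord by 0.52 ± 0.25 (adjusted p = 0.33) and for Dak by 0.38 ± 0.19 (adjusted p = 0.334). The median was 0.49 over the 6 genes and 0.27 over all genes. After median-of-ratios scaling the difference was 0.29 for Khk (adjusted p = 0.873), 0.48 for Akr1b3, 0.13 for Sord and -0.0005 for Dak, with a median of 0.12 over the 6 genes.

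**Figure D3:**
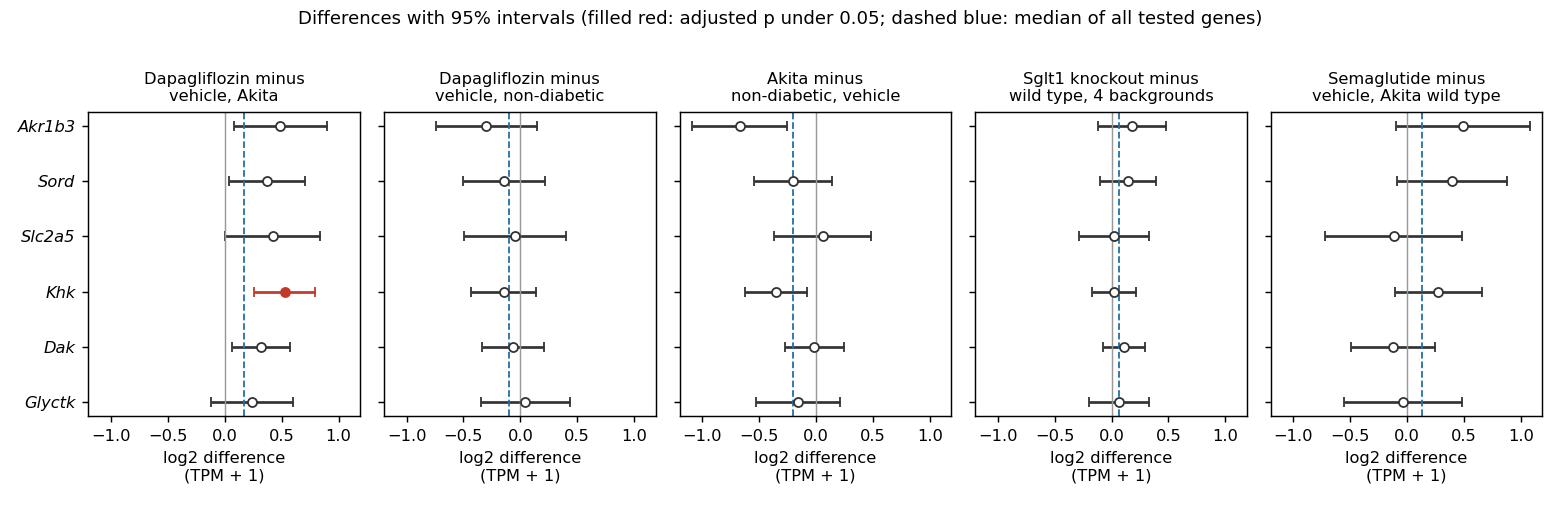
Log2 differences of the 6 genes (circles, with 95% intervals) in 5 comparisons, each named with the tested condition first; the dashed line is the median of all 12742 tested genes. The 1 filled red circle, Khk at 0.53 under dapagliflozin in Akita mice, passed an adjusted p of 0.05, and most other intervals include 0.

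Diabetes itself came with lower values of aldose reductase and ketohexokinase in TPM, but neither passed the threshold, and both differences shrank after median-of-ratios scaling, that of ketohexokinase to near 0. The comparison was made between mice on vehicle, and its Akita libraries are the same vehicle libraries that the dapagliflozin comparison used. Averaged over genotypes, limma called 0 of the 6 genes, beside 0.557% of all tested genes; 2 of the 6 had an unadjusted p under 0.05 and were lower, against 18.1% of all genes lower. Akr1b3 had a lowest value of 2.73, a median of 3.56 and a highest value of 8.53 TPM in Akita knockout mice, against 4.31, 14.6, 6.05, 5.77 and 6.35 TPM in non-diabetic knockout mice. In wild-type mice it had 1.02, 4.56 and 6.09 TPM (lowest, median, highest) in Akita, against 7.59, 8.82, 6.35, 6.7 and 6.46 TPM in non-diabetic mice. The wild-type groups did not overlap, the only such case among the 6 genes in that comparison. Akr1b3 also lay below the same non-diabetic vehicle libraries, without overlap, in non-diabetic wild-type mice on dapagliflozin. The share of all tested genes without overlap was not counted in either comparison. Between the wild-type Akita and non-diabetic vehicle groups, 0.0235% of all tested genes were called and 7.60% had an unadjusted p under 0.05. The averaged difference of Akr1b3 was -0.67 ± 0.21 (SE; 95% interval -1.09 to -0.25; limma adjusted p = 0.0966), with 10 of 12 Akita libraries at or below the non-diabetic median. It passed the threshold when 1 of 3 libraries was left out: replicate 3 of Akita knockout vehicle (adjusted p = 0.0411), replicate 1 of Akita wild-type vehicle (0.0497) or replicate 1 of non-diabetic knockout vehicle (0.0491). It shrank to -0.45 after median-of-ratios scaling (adjusted p = 0.35), to -0.37 without the 4 libraries with the fewest genes (adjusted p = 1) and to -0.32 with both changes (adjusted p = 0.707).

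Khk differed between Akita and non-diabetic mice by -0.35 ± 0.14 (SE; 95% interval -0.62 to -0.08; limma adjusted p = 0.164), and 10 of 12 Akita libraries were at or below the non-diabetic median. After median-of-ratios scaling it differed by -0.07 (adjusted p = 0.884). The remaining genes were closer to 0. Sord differed by -0.20 ± 0.17 (SE), Glyctk by -0.16 ± 0.18, Dak by -0.02 ± 0.13 and Slc2a5 by 0.06 ± 0.21. The median of the 6 genes was -0.18, beside -0.20 over all tested genes. After median-of-ratios scaling it was 0.10, with 4 of the 6 genes positive, beside -0.003 over all tested genes. The 8 late proximal tubule markers were all lower in Akita mice, with a median of -0.81 and 3 called (Slco1a1, Acy3 and Slc7a13). Their sum was 239 to 820 TPM in Akita knockout and 240 to 719 TPM in Akita wild-type mice, against 710 to 977 and 665 to 933 TPM in non-diabetic knockout and wild-type mice. The part of these markers in the Akr1b3 and Khk differences was not tested.

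For loss of Sglt1, no gene of the 6 passed the threshold. Averaged over the 4 backgrounds in which both genotypes were measured, limma called 0 of the 6 genes, beside 0.0235% of all tested genes, and 0 of the 6 had an unadjusted p under 0.05, against 4.91% of all genes. The differences ran from 0.02 for Slc2a5 to 0.18 for Akr1b3, and no adjusted p was below 0.921. All 6 were positive in TPM, and 3 of the 6 were after median-of-ratios scaling. For Khk, which lies on the chromosome of the knocked-out gene, the difference was 0.02 ± 0.10 (SE; 95% interval -0.17 to 0.22), and for Dak it was 0.11 ± 0.09 (95% interval -0.08 to 0.30). The least precise was Slc2a5, with an interval of -0.29 to 0.33. Within the vehicle backgrounds limma also called 0 of the 6 genes, with 0 of the 6 at an unadjusted p under 0.05, where it called 0.0157% of all tested genes for the knockout in Akita vehicle mice and 0.0235% in non-diabetic vehicle mice. In each of these backgrounds 4 of the 6 genes were negative. The lowest was Slc2a5, at -0.405 ± 0.313 without diabetes and -0.181 ± 0.286 in Akita mice (SE). Dapagliflozin in non-diabetic knockout mice called 0.00785% of all tested genes and again 0 of the 6, with 0 at an unadjusted p under 0.05.

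Loss of Sglt1 and dapagliflozin together, set against wild-type vehicle in Akita mice, called 0 of the 6 genes by limma, beside 0.0628% of all tested genes; 3 of the 6 had an unadjusted p under 0.05, against 10.7% of all genes. Akr1b3 differed by 0.67 ± 0.28, Khk by 0.41 ± 0.18 and Dak by 0.39 ± 0.17 (SE; adjusted p = 0.377, 0.425 and 0.419). In TPM, all 6 of the knockout dapagliflozin libraries exceeded the wild-type vehicle median for Khk and for Dak. Not all of them did so on the median-of-ratios scale. After median-of-ratios scaling the differences were 0.49, 0.16 and 0.14. With both that scaling and the 4 libraries with the fewest genes left out they were 0.27, 0.11 and 0.18. Without replicate 2 of wild-type vehicle, Akr1b3 differed by 0.42. The 8 late proximal tubule markers moved with this comparison: all 8 were positive, with a median of 0.69, 5 had an unadjusted p under 0.05 and 0 were called. Their sum was 523 to 988 TPM in knockout mice on dapagliflozin, against 240 to 719 TPM in wild-type mice on vehicle, and their part in these differences was not tested.

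Semaglutide was tested in Akita wild-type mice only. The numbers in the sample titles were 88 to 99 for semaglutide, against 1 to 82 for vehicle and 4 to 78 for dapagliflozin in these mice. Semaglutide thus cannot be told apart from anything tied to that number. Limma called 0 of the 6 genes and 0% of all tested genes, and 0 of the 6 had an unadjusted p under 0.05, against 5.82% of all genes. Sord had 72.7, 66, 84, 105 and 107 TPM on semaglutide, against a lowest value of 42, a median of 70.9 and a highest value of 87.7 TPM on vehicle. The groups overlapped, and the difference was 0.39 ± 0.24 (SE; 95% interval -0.09 to 0.88; limma adjusted p = 0.878). Akr1b3 had 4.1, 4.5, 4.16, 8.73 and 9.02 TPM on semaglutide, and only 2 of these 5 libraries lay above the vehicle median; the difference was 0.49 ± 0.29 (SE; adjusted p = 0.878). Khk differed by 0.27 ± 0.19 (SE; 95% interval -0.11 to 0.66), and Dak, Slc2a5 and Glyctk by -0.12, -0.12 and -0.04. The median of the 6 genes was 0.12 in TPM and -0.07 after median-of-ratios scaling, with 3 of the 6 positive on either scale. Under the 3 other scalings the group mean of Dak was 39.9 to 41.4 on semaglutide, against 49.6 to 51.4 on vehicle. The dapagliflozin comparison in the same mice used the same 6 vehicle libraries. Set directly against dapagliflozin, semaglutide gave differences from -0.33 (Slc2a5) to 0.06 (Akr1b3), and Khk differed by -0.24 ± 0.20 (SE; 95% interval -0.64 to 0.16). Limma called 0 of the 6 genes there, with 0 of the 6 and 2.61% of all genes at an unadjusted p under 0.05.

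The wider pathway was described by 45 further genes in 6 lists, of which 36 were tested. None was called in any of the 19 comparisons except Slc5a1 itself, lower in knockout mice. Under dapagliflozin in Akita mice, 11 of the 36 had an unadjusted p under 0.05, against 17.5% of all tested genes, and their median difference was 0.28, beside 0.17 over all genes. All 5 tested enzymes that act on fructose 1-phosphate, trioses and glycerate were positive, with a median of 0.27; after median-of-ratios scaling 3 of 5 were, with a median of 0.02. Of these 5, 0 were called and 2 had an unadjusted p under 0.05.

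Of the hexose and polyol transporters, 9 of 10 were tested and none was called; their median was 0.07, below that of all genes. After median-of-ratios scaling 1 of the 9 was called, as lower, and the median was -0.02. Slc5a10, a sodium-coupled transporter of mannose and fructose, had the smallest p, with 0.46 ± 0.18 (SE; limma adjusted p = 0.182). Of the other aldo-keto and polyol reductases, 5 of 7 were tested, 0 were called, and the smallest p was that of Akr1b10 at 0.41 ± 0.14 (SE; adjusted p = 0.136). Of 8 regulators and targets of the carbohydrate response, all were tested and positive (7 of 8 after median-of-ratios scaling), none was called, and Pklr, a pyruvate kinase, had the smallest p at 0.46 ± 0.20 (SE; adjusted p = 0.238). Hk1, the only hexokinase of 5 that was tested, averaged between 1.6 and 2.78 TPM in the 9 groups and differed by 0.34 ± 0.22 (SE; adjusted p = 0.416).

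**Figure D4:**
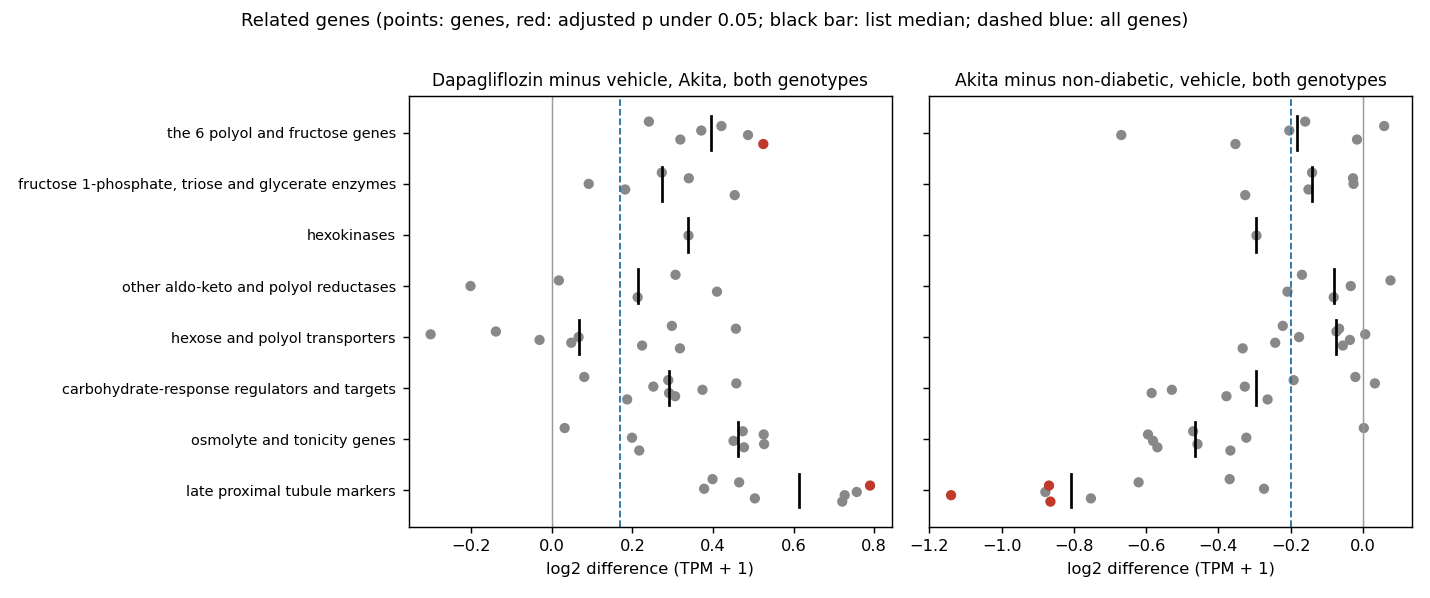
Log2 differences (horizontal axes) of single genes by list, for dapagliflozin minus vehicle in Akita mice (left) and Akita minus non-diabetic mice on vehicle (right), both averaged over Sglt1 genotypes. Red points passed an adjusted p of 0.05; Khk and Acy3 did so on the left, and 3 late proximal tubule markers on the right.

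Across the 48 libraries, the protein-coding genes most correlated with each of the 6 were found among 10395 genes, on median-of-ratios scaled log2 values. These correlations are descriptions over libraries that share groups, depth and tissue makeup. Dak was closest to Slc5a10 (Pearson r = 0.739) and then to Cyc1 (0.697). Slc2a5 was also closest to Slc5a10 (0.665), then to Dak (0.593) and Eno1 (0.555). The sodium-coupled transporter Slc5a10 was thus nearest to both the triokinase and the fructose transporter. Sord was closest to Lgmn (0.811), Uqcrc1 (0.758) and Fbp1 (0.744), the last a gluconeogenic enzyme, and Khk to Sod1 (0.672), Gnas (0.645) and Gapdh (0.638). Akr1b3 was closest to Mep1a (0.588), Napsa (0.558) and Slc5a8 (0.557), and Glyctk to Zfp276 (0.628), Ptpn23 (0.584) and Josd2 (0.572). Sord and Glyctk had the lowest correlation of the 15 pairs among the 6 genes, at -0.353.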

How the data were processed

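Per the labels' protocols, 0.5 ng of total RNA (DV200 over 30%) went into each stranded library. The deposited table holds TPM per gene, which the authors derived with Salmon, on the mouse build GRCm38 and with MultiQC 1.8 among the tools, per the submitters' processing notes. Which Salmon version and annotation were used is not given in the sources used here. A column was found for 48 of the 54 samples; the other 6 were not analysed here. Genes with at least 1 TPM in at least 5 libraries were kept, and log2(TPM + 1) was fitted for all 9 groups with limma 3.58.1 (trended and robust, with statmod 1.5.0, in R 4.3.3), with Benjamini-Hochberg adjustment over the 12742 genes and a threshold of 0.05. Fold changes of low genes are understated on this scale. A called gene is one under that threshold. TPM keep no depth, so no counting interval is given.

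The 6 genes, the lists and the markers were chosen with earlier results of these data known. So were the comparisons that average over groups or compare effects between groups, and the call of Khk came from such an average. Adjustment was made within each of the 19 comparisons and not across them. All 6 genes were named in every comparison; from other lists, called genes or else the gene with the smallest p were named, and for likeness the 3 genes with the highest correlation; 1 gene that these rules name is not reported here. Positions are those of GENCODE M21. The fit was tested on simulated data. Alternatives were 3 other scalings, another pseudocount (0.1), no filter or a stricter one (5 TPM), the number in the sample title or the number of detected genes as a covariate, leaving out the 4 libraries with the fewest genes, fitting only the compared groups, and leaving out each library.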

Additional observations from a re-analysis of the deposited data

Results flagged for a closer look

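Dak and Akr1b3 each had 1 value that stood far from the other libraries of its group by Dixon's test. Dak had 60.7 TPM in replicate 3 of non-diabetic wild-type mice on vehicle, where the nearest of the other 4 libraries had 40.7 TPM. Akr1b3 had 14.6 TPM in replicate 2 of non-diabetic knockout mice on vehicle, where the nearest had 6.35 TPM. Of 54 gene and group combinations tested, 2 stood apart, and chance alone gives about 1 in 20, or 2.7.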

How the results depend on the processing

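Of the 6 genes, 0 were called in each of the other 17 comparisons under every alternative run. Under dapagliflozin in Akita mice the count called was 1 (Khk), and 0 with median-of-ratios scaling, rescaling to nuclear protein-coding genes, quantile normalization, no filter, detected genes as a covariate, without the 4 libraries with fewest genes, with only the compared groups, and with median-of-ratios scaling without those 4, an alternative chosen after seeing the data. Leaving out 1 library gave 0 to 1 there and 0 to 1 for diabetes averaged over genotypes. The 104 genes called over the whole table became 54 (31 higher, 23 lower, against 102 and 2 in TPM) with median-of-ratios scaling, 72 (39 and 33) after rescaling to nuclear protein-coding genes, 58 (36 and 22) with quantile normalization, 6 with no filter, 233 with a stricter filter, 34 with detected genes as a covariate, 0 without the 4 libraries, 3 with only the compared groups, 2 with both changes, and 9 to 378 without 1 library.

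Khk remained positive under dapagliflozin in Akita mice in all settings, with adjusted p between 0.0249 and 0.765. The difference of Glyctk there reversed to -0.00946, -0.0319 and -0.0181 under the 3 scalings and to -0.00201 under the added alternative. In Akita wild-type mice alone, 3 of the 6 genes were positive under dapagliflozin in each of the 3 scalings, against 6 in TPM. The difference of Dak in the drug's effect between Akita and non-diabetic mice reversed to -0.000531, -0.0103 and -0.0289 under the 3 scalings. The cause was not tested. No paired analysis was possible because the labels give no replicate numbers. With 4 to 6 libraries a group and an unknown read depth, small differences could not be detected.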

Other observations

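Sorbitol, the product of aldose reductase, is one of several organic osmolytes of kidney cells, and 8 of 9 genes of a list for the others and their regulation were tested. All 8 had positive differences under dapagliflozin in Akita mice, with a median of 0.46 beside 0.17 over all genes. Of the 8, 5 were higher at an unadjusted p under 0.05, against 16.8% of all tested genes, and 0 passed the threshold by limma, against 0.816%; after median-of-ratios scaling 5 of 8 were positive, with a median of 0.25. Slc6a6, the taurine transporter, had the smallest p. It averaged 48.7 ± 17.1 TPM in Akita knockout mice on dapagliflozin and 33.2 ± 13.3 TPM on vehicle (SD, n = 6 each), and 38.7 ± 8.81 TPM in Akita wild-type mice on dapagliflozin (SD, n = 5) and 27.4 ± 6.76 TPM on vehicle (SD, n = 6). Its averaged difference was 0.53 ± 0.17 (SE; adjusted p = 0.109).

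Between Akita and non-diabetic mice on vehicle, 6 of the 8 osmolyte genes were lower at an unadjusted p under 0.05, against 18.1% of all tested genes, and 0 passed the threshold by limma, against 0.557%. Their median was -0.46 beside -0.20 over all genes, and -0.19 beside -0.003 after median-of-ratios scaling. The 8 late proximal tubule markers had a median of -0.81 in this comparison and 0.61 under dapagliflozin in Akita mice, and their part in the osmolyte differences was not tested. The smallest p was that of Slc38a2, a neutral amino acid transporter, at -0.58 ± 0.16 (SE; adjusted p = 0.0606). It averaged 1.38 ± 0.513 TPM in Akita knockout mice (SD, n = 6), against 2.93 ± 0.906 TPM in non-diabetic knockout mice (SD, n = 5). In wild-type mice it averaged 1.43 ± 0.899 TPM in Akita (SD, n = 6), against 2.22 ± 0.841 TPM in non-diabetic mice (SD, n = 5). Both comparisons used the same Akita vehicle libraries.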
